A study of Mus musculus with 36 samples.

Results

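The collagen genes of the mouse were followed across tissues of mice made to develop translocation renal cell carcinoma, a kidney cancer driven by fusions of the transcription factor gene TFE3. All protein-coding genes whose symbol has the form Col, a type number, a and a chain number were taken, which gave 44 of the 53379 genes in the count tables. They were placed in 5 classes by the assembly they build: 11 fibrillar, 6 basement membrane and 3 network chains, 9 FACIT chains (fibril-associated collagens with interrupted triple helices) and 15 others, which are beaded filament, anchoring fibril, transmembrane and multiplexin chains and, outside these kinds, Col26a1 and Col28a1.

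Collagen chains wind into triple helices in the endoplasmic reticulum, are trimmed after secretion and then assemble outside the cell. Fibrillar types bear tension in interstitial tissue, whereas type IV sheets underlie epithelia and vessels. In the adult kidney the glomerular filter carries a specialised type IV network made mainly by podocytes, and interstitial fibroblasts and pericytes are the usual source of fibrillar collagen in scarring and in tumor stroma.

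In the Sglt2-Cre model a Cre driven by the promoter of a proximal tubule glucose transporter switches on ASPSCR1-TFE3 in Sglt2-Cre; ASPSCR1-TFE3 LSL/+ mice, and 6 of these mice gave 11 kidney tumor, 4 retro-orbital tumor (mice 2, 3, 5 and 6), 3 brain tumor (mice 1, 2 and 4) and 4 non-transformed kidney libraries (mice 1, 3, 4 and 5). The controls were 6 kidney libraries from 3 Sglt2-Cre mice without the fusion. In the fetal model, 5 dysmorphic kidneys came from Pax8-Cre; ASPSCR1-TFE3 LSL/+ fetuses, in which a Cre of the nephron and collecting duct lineages acts, and 3 control kidneys from fetuses of the same age. The control fetuses were labelled Pax8-Cre, while the design text gives them as Pax8-Cre or as carrying the unrecombined fusion allele. The ages themselves were not given, all tissue was formalin-fixed and paraffin-embedded, and libraries of the same mouse and tissue were summed, so that n counts mice. Values for mice are given in the order of their numbers.

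Library totals ran from 80205573 to 121415057 counts, and levels are given as CPM, TMM-scaled counts of a gene per 1000000 counts, over the 28 sets of libraries of 1 animal and tissue. Gpnmb, a TFE3 target and melanosomal glycoprotein gene used to check the labels, lay at 2827 to 7325 CPM in kidney tumor mice, at 2.46, 2.31 and 1.54 CPM in control kidneys and at 111, 447, 367 and 126 CPM in non-transformed kidneys. Control and non-transformed adult kidneys are together called normal kidneys below, although these Gpnmb values set the non-transformed kidneys apart from controls. The first of the kidney tumor libraries of mouse 4 stood apart from the other 10: Dct, a melanocyte and forebrain gene, was at 409.5 CPM there and at 0.964 CPM or less in the others, the astrocyte gene Gfap at 33.8 CPM and the cartilage collagen gene Col2a1 at 19.3 CPM against 0.0409 to 2.52 CPM. Collagen calls were therefore also made without it. In bulk tissue, fewer cells of a type and less RNA per cell cannot be told apart.

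Collagen transcripts took different shares of the RNA in the 7 groups. They made up 0.195% ± 0.0357 of all counts in control kidneys (SD, n = 3), 0.227% ± 0.0189 in non-transformed kidneys (n = 4) and 0.407% ± 0.124 in kidney tumors (n = 6). Retro-orbital tumors had 0.669% ± 0.163 (n = 4) and brain tumors 0.112% ± 0.0427 (n = 3). Control fetal kidneys had 0.933% ± 0.13 (n = 3) and dysmorphic fetal kidneys 2.13% ± 0.445 (n = 5). Each dysmorphic kidney, from 1.41% to 2.64%, lay above each control fetal kidney, from 0.805% to 1.07%, and each kidney tumor mouse, from 0.264% to 0.531%, above each control kidney, from 0.154% to 0.221%. Brain tumors, from 0.0646% to 0.148%, lay below every other group.

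**Figure D1:**
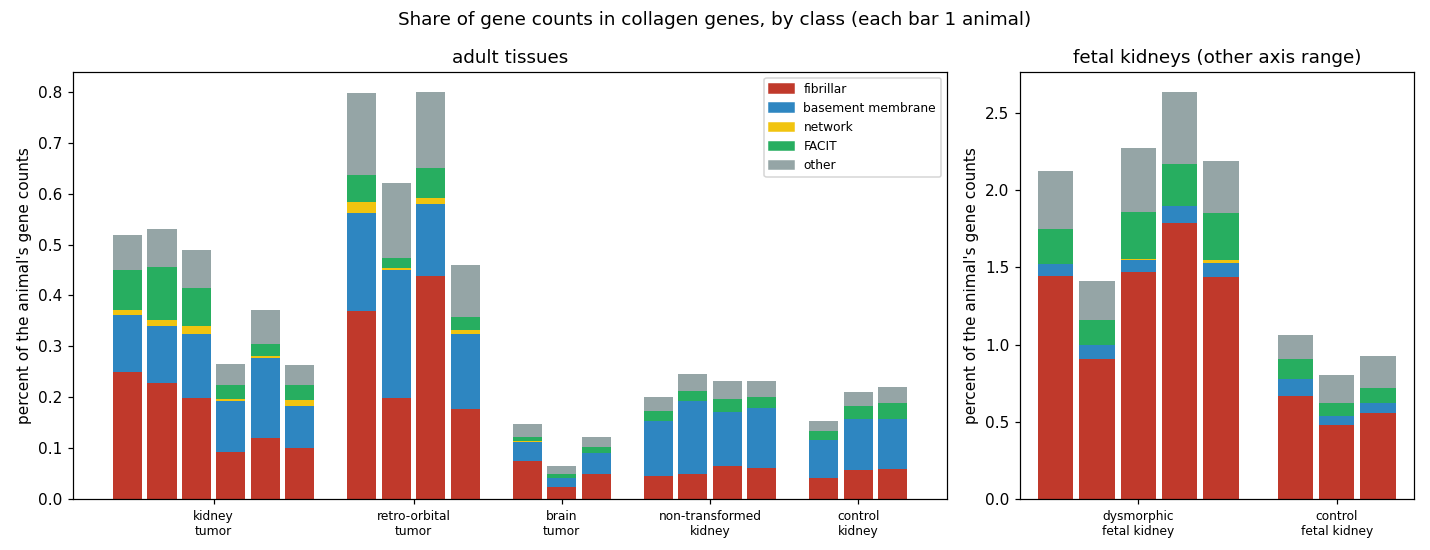
Percent of each animal's gene counts that fell in collagen genes, with 1 bar for each mouse or fetus stacked by class, and with another axis range for the fetal kidneys. Fibrillar chains held on average 0.0524% of counts in control kidneys, 0.165% in kidney tumors and 1.41% in dysmorphic fetal kidneys.

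The classes were not in the same proportion in each tissue. Fibrillar chains held 0.0524% ± 0.00975 of counts in control kidneys, 0.165% ± 0.0687 in kidney tumors, 0.296% ± 0.128 in retro-orbital tumors and 0.049% ± 0.026 in brain tumors. Basement membrane chains held 0.091% ± 0.0138 in control kidneys and 0.115% ± 0.0256 in kidney tumors, ranges that overlapped. In both normal adult kidney groups basement membrane chains held more of the counts than fibrillar chains, and in the means of the other 5 groups fibrillar chains held more. Per kilobase of the principal transcript, the most abundant chain was Col4a3 in control kidneys (43.0 CPM per kilobase) and non-transformed kidneys (55.2), Col1a2 in kidney tumors (95.8), Col3a1 in retro-orbital tumors (143), Col4a1 in brain tumors (23.0) and Col3a1 in dysmorphic (740) and control fetal kidneys (299.9). Of the 44 genes, 25 averaged at least 1 CPM in every group, 27 had their highest mean in dysmorphic fetal kidneys, and among the adult groups 22 had theirs in retro-orbital tumors. The matching shares of all genes are not given here, so these counts describe the 44 genes only.

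**Figure D2:**
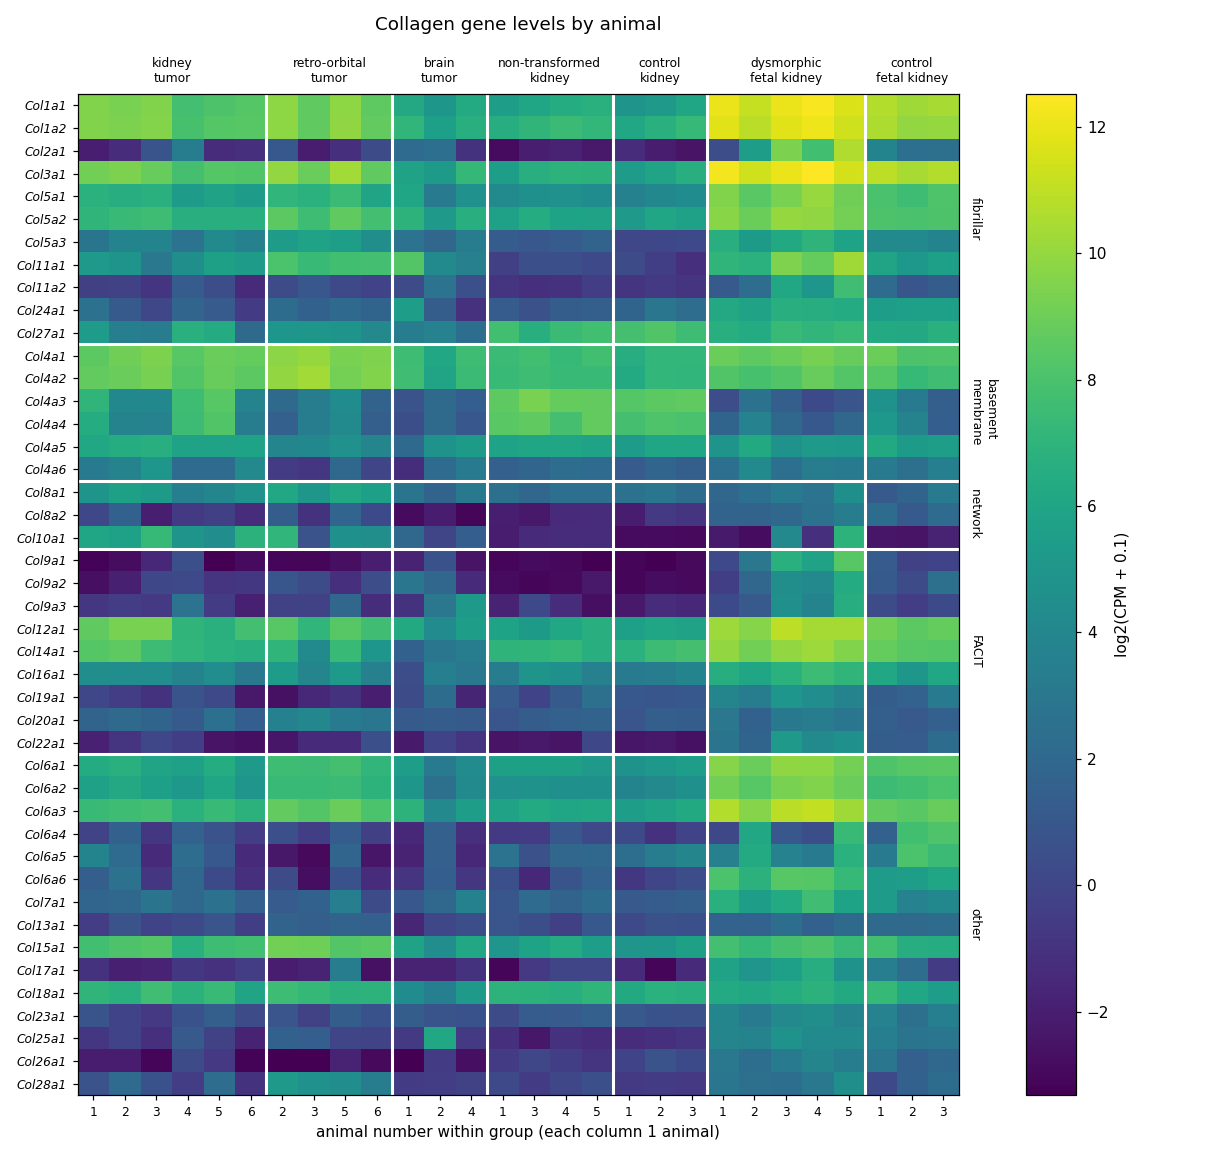
Level of each of the 44 collagen genes in each animal, as the log2 of CPM plus 0.1, with rows ordered by class and columns by group. Type I and type III chains are highest in the fetal kidneys, Col4a3 and Col4a4 in the normal adult kidneys, and Col10a1 is near the bottom of the scale in control kidneys and high in kidney tumors.

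To ask which collagens differ between kidney tumors and normal kidney, each pair of groups was fitted over all genes with edgeR's quasi-likelihood test, and genes with a Benjamini-Hochberg adjusted p under 0.05 were called. Against control kidneys 17 of 44 collagen genes were called, where 19% of all 23578 genes were, and all 17 were higher, where 12.5% of all genes were called higher and 6.51% lower. The median log2 fold change was 1.36 over the collagens and 0.05 over all genes. By class, 7 of 11 fibrillar, 3 of 6 basement membrane, 2 of 3 network, 2 of 9 FACIT and 3 of 15 other genes were called. Every kidney tumor mouse lay above every control mouse for 18 genes, where 15.8% of all genes did so, and below for 2, Col27a1 and Col19a1, where 14% did so. Against non-transformed kidneys 16 of 43 genes were called, where 17.1% of all genes were, all of them higher (12.1% of all genes were higher and 5.02% lower) and all 16 among the 17 above. Of the 17 only Col4a6 was not called there. Kidney tumors lay wholly above non-transformed kidneys for 15 genes (11.7% of all genes) and wholly below for Col4a3 (6.47%). Col9a1 had too few counts to be tested there. These comparisons share the tumor samples.

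The number of calls leaned on the small groups. It was 10 without control mouse 1 (2084 of 24371 genes in all) and 9 without control mouse 2 (1163 of 24349 genes in all). Against non-transformed kidneys it was 7 with mouse as a block over the 4 mice that gave both tissues, in a fit that called 847 of 20575 genes. Col5a2, Col5a3, Col11a1, Col4a1, Col4a2, Col10a1 and Col6a3 were called with the block, and Col1a1, Col1a2, Col3a1, Col5a1, Col8a1, Col9a2, Col12a1, Col6a2 and Col15a1 were not. Without the first tumor library of mouse 4, Col27a1 was also called against control kidneys, 2.76 lower as log2 (edgeR adjusted p 0.0351), and Col27a1 and Col19a1, both lower, and Col4a6, higher, were added against non-transformed kidneys.

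Non-transformed kidneys of fusion mice were then compared with control kidneys. With edgeR 0 of 42 collagen genes were called, where 0.00952% of all genes were, and 8 had an unadjusted p under 0.05, as did 2462 of all 21019 genes. DESeq2 called 3, of which Col5a3 and Col10a1 were higher and Col24a1 lower, among 575 of 24185 genes that it called in all. With every library entered as its own sample edgeR called Col5a3 and Col10a1, among 227 of 20869 genes. Every non-transformed kidney lay above every control for 6 genes, Col5a3, Col4a1, Col4a2, Col10a1, Col6a2 and Col28a1 (4.48% of all genes did so), and below for Col24a1 (7% did so). Col9a1 and Col9a2 were too low to be tested.

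**Figure D3:**
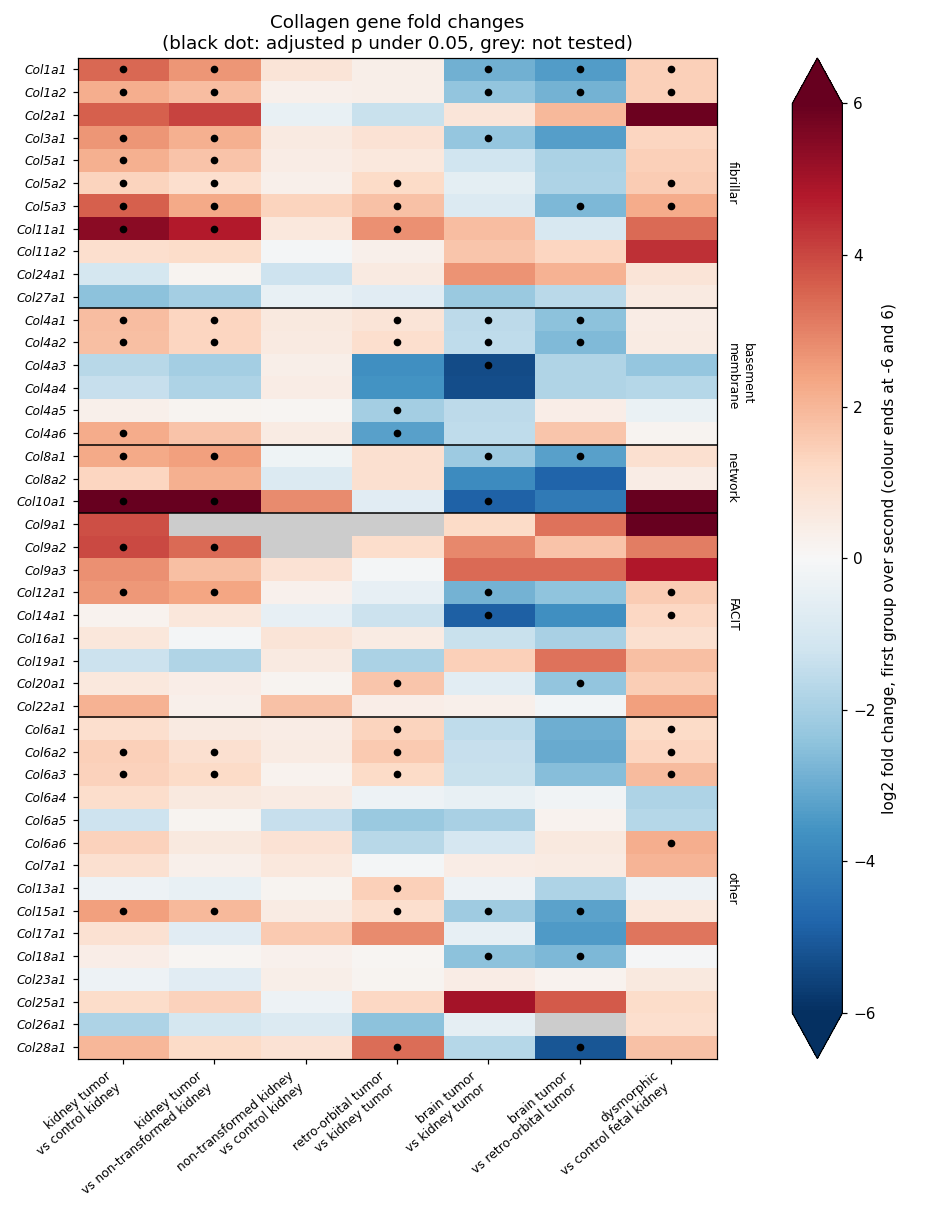
Log2 fold change of the 44 collagen genes (rows, by class) in the 7 comparisons (columns), as colours that end at -6 and 6, with a black dot at an adjusted p under 0.05 and grey where a gene was not tested. The column of kidney tumors against control kidneys is mostly red (higher) with 17 dots, and that of brain against kidney tumors mostly blue (lower) with 12.

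Fibrillar chains were the class with the most calls in kidney tumors. Col1a1 (ENSMUSG00000001506.10, GRCm38 chr11:94936224-94953042, plus strand) and Col1a2 (chr6:4504814-4541544, plus strand) encode the chains of type I collagen, the main fibril of bone, tendon and scar. Col1a1 lay at 220 to 748 CPM with a median of 481 in the 6 kidney tumor mice, at 44.3, 63.1, 89.4 and 105 CPM in non-transformed kidneys and at 28.8, 36.8 and 66.8 CPM in control kidneys. Tumor and kidney values did not overlap, and Col1a1 rose by 3.46 (SE 0.55, edgeR adjusted p 0.00436) on the log2 scale against control and by 2.66 (SE 0.44, edgeR adjusted p 0.00379) against non-transformed kidneys. Col1a2 lay at 236 to 760 CPM with a median of 508 in tumors, at 94.0, 130, 176 and 146 CPM in non-transformed and at 71.4, 108 and 155 CPM in control kidneys. Col1a2 rose by less, 2.18 (SE 0.47, edgeR adjusted p 0.0152) and 1.86 (SE 0.38, edgeR adjusted p 0.0102). The ratio of Col1a1 to Col1a2 per kilobase was accordingly 0.353 ± 0.0415 (SD, n = 3) in control kidneys, 0.492 ± 0.105 (n = 4) in non-transformed kidneys and 0.852 ± 0.0515 (n = 6) in tumors, and the tumor range of 0.763 to 0.920 lay above both kidney ranges. Fetal kidneys had the highest ratios, with means of 1.07 in dysmorphic and 1.10 in control kidneys.

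Col3a1 (chr1:45311538-45349706, plus strand) encodes type III collagen, which forms thin fibrils with type I in soft organs. It lay at 232 to 675 CPM with a median of 391 in kidney tumors, at 45.5, 98.8, 119 and 115 CPM in non-transformed and at 43.0, 60.4 and 96.4 CPM in control kidneys, with no overlap. Col3a1 rose by 2.66 (SE 0.43, edgeR adjusted p 0.00459) against control and by 2.13 (SE 0.38, edgeR adjusted p 0.00542) against non-transformed kidneys. The type V chains Col5a1, Col5a2 and Col5a3 take part in starting type I fibrils and set their width, and all were called in both comparisons. Col5a1 lay at 40.6 to 111 CPM with a median of 73.6 in tumors, at 18.4, 24.6, 25.6 and 20.8 CPM in non-transformed and at 12.2, 17 and 21.1 CPM in control kidneys, a rise of 2.15 (SE 0.42, edgeR adjusted p 0.00997) over control. Col5a2 lay at 97.1 to 196 CPM with a median of 116 in tumors, at 53.4, 91.0, 58.8 and 55.4 CPM in non-transformed and at 38.6, 64.8 and 53.0 CPM in control kidneys, a smaller rise of 1.33 (SE 0.30, edgeR adjusted p 0.0168).

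Col5a3 and Col11a1 were low in normal kidney, and among the fibrillar chains called against control kidneys their rises were the largest. Col5a3 (chr9:20770050-20815067, minus strand) lay at 6.32 to 18.4 CPM with a median of 13.2 in kidney tumors, at 2.39, 1.87, 2.35 and 3.25 CPM in non-transformed kidneys and at 0.950, 0.975 and 1.02 CPM in control kidneys. The 3 groups did not overlap and stood in the order control, non-transformed and tumor. Col5a3 rose by 3.60 (SE 0.41, edgeR adjusted p 0.000758) against control and by 2.25 (SE 0.34, edgeR adjusted p 0.00233) against non-transformed kidneys, while the difference between the kidney groups, 1.33 (SE 0.27, edgeR adjusted p 0.173), was not called. Col11a1 (ENSMUSG00000027966.20, chr3:114030540-114220718, plus strand), a chain of the type XI fibrils of cartilage that is also known from activated stroma, lay at 7.93 to 50.9 CPM with a median of 32.6 in kidney tumors, at 0.715, 1.38, 1.36 and 1.01 CPM in non-transformed and at 1.19, 0.654 and 0.334 CPM in control kidneys. Col11a1 rose by 5.43 (SE 0.73, edgeR adjusted p 0.00184) and 4.78 (SE 0.54, edgeR adjusted p 0.00046), and every tumor mouse lay above every kidney. The chains that build cartilage fibrils with it were not called. Col2a1, the type II collagen of cartilage, had tumor values of 0.147 to 10.4 CPM that overlapped controls at 0.310, 0.135 and 0.0770 CPM, and Col11a2 was at 0.290 to 2.38 CPM against 0.447, 0.555 and 0.411 CPM. Mouse 4 gave the upper end of both tumor ranges. Its first tumor library had 19.3 CPM of Col2a1 and 4.28 CPM of Col11a2, and its second 0.0409 and 0.174 CPM.
The 250 bases before the RefSeq start sites of these genes are shown because both genes were low in normal kidney and called in tumors. Coordinates are GRCm38, sequences are from RefSeq's GRCm38.p6 table and written 5′ to 3′ on the strand of the gene, no annotated exon lies in them, and capitals mark GGGCGG or its reverse complement.
Col11a1, chr3:114030290-114030539, plus strand: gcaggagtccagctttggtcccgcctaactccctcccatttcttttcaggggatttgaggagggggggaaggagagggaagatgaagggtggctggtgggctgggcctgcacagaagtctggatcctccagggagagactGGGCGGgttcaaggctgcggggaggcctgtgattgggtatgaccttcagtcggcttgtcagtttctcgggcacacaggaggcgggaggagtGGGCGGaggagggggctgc
Col5a3, chr9:20815068-20815317, minus strand: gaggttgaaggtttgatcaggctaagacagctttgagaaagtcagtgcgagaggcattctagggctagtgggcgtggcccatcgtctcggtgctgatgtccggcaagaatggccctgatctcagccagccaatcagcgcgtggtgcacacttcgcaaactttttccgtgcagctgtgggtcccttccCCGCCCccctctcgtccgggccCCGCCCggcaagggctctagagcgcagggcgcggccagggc

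Col27a1 and Col24a1, fibrillar chains known mainly from developing cartilage and bone, were not raised in kidney tumors. Col27a1 was at 226, 303 and 192 CPM in control kidneys, the second most abundant collagen per kilobase there (31.6 CPM per kilobase), at 210, 99.2, 177 and 210 CPM in non-transformed kidneys and at 43.6, 11.0, 10, 108, 85.8 and 4.28 CPM in kidney tumor mice 1 to 6. Tumor values were all below control, highest in mice 1, 4 and 5, and the log2 difference of -2.48 (SE 0.87, edgeR adjusted p 0.0729) was not called. Col24a1 was at 0.604 to 6.03 CPM with a median of 2.21 in kidney tumors, at 3.35, 7.35 and 4.91 CPM in control kidneys and at 2.33, 1.43, 2.45 and 2.67 CPM in non-transformed kidneys. The normal kidney groups did not overlap, and their log2 difference of -1.22 (SE 0.33, edgeR adjusted p 0.239) was not called.

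Stromal markers were read beside the fibrillar chains. The 8 fibroblast markers summed to 150.3 to 502 CPM in kidney tumors and 192 to 299 CPM in control kidneys, and 1 of them, Thy1, was called higher, where 12.5% of all genes were. All 8 had a log2 fold change above 0, with a median of 0.78 against 0.05 over all genes. The 7 pericyte and smooth muscle markers summed to 274 to 665 CPM and 333 to 427 CPM, and 2 were called higher, Pdgfrb and Rgs5. Of these 7, 3 had a log2 fold change above 0 and 4 below, with a median of -0.10. No marker of either list was at 0 in a group, and their part in the collagen values was not tested.

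Tumors outside the kidney were compared with kidney tumors and with each other. In each comparison 3 of 11 fibrillar genes were called, beside the shares of all genes given below. Retro-orbital tumors were compared with kidney tumors, and 14 of 43 collagen genes were called, where 17.7% of all genes were. Of these, 12 were higher (8.26% of all genes) and 2 lower (9.45% of all genes), with a median log2 fold change of 0.39 against -0.09 over all genes. Groups were apart for 10 genes upward (8.26% of all genes) and for Col4a5 and Col4a6 downward (7.82%). Brain tumors had 12 of 44 called against kidney tumors, where 8.74% of all genes were, and all 12 were lower (4.2% of all genes were lower and 4.54% higher), with a median of -1.34 against 0.03. Brain tumors lay wholly below kidney tumors for 15 genes (9% of all genes) and wholly above for 0 (6%). Between brain and retro-orbital tumors 10 of 43 were called, where 1.73% of all genes were, and all 10 were lower in brain (1.34% of all genes were lower and 0.395% higher), with 21 genes wholly below (10.4%) and 0 wholly above (8.49%). Col9a1 in the first and Col26a1 in the last of these comparisons had too few counts to be tested. These comparisons share tumor groups with each other.

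Counts between sites changed when single mice were left out. With mouse as a block the retro-orbital count was 12, without Col5a2 and Col4a6 and among 2677 of 20462 genes called in all, while for brain against kidney tumors it was 0 with edgeR over the 3 mice with both, 15 collagens and 2870 of all 21827 genes having an unadjusted p under 0.05, in a fit that called 0 genes. DESeq2 without the block called 18, among 5082 of 25759 genes. Retro-orbital against kidney tumors gave 9 calls without retro-orbital mouse 2, among 2095 of 23382 genes. Brain against kidney tumors gave 4 calls without kidney tumor mouse 1, 5 without kidney tumor mouse 2, kidney tumor mouse 3 or brain mouse 2, and 8 without kidney tumor mouse 5 or mouse 6, in fits that called 857 to 1258 genes in all. Brain against retro-orbital tumors gave 0 without retro-orbital mouse 2 or mouse 3 (25 and 24 at an unadjusted p under 0.05, and 3111 and 3346 of all genes), 2 without mouse 5, 1 without mouse 6 and 15 without brain mouse 1. Of all genes 1 and 11 were called without retro-orbital mouse 2 or mouse 3, 179 without mouse 5, 10 without mouse 6 and 1316 without brain mouse 1. DESeq2 called 25 over all mice, among 3062 of 22800 genes.

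Col11a1 was the fibrillar chain that differed most between retro-orbital and kidney tumors. It lay at 257, 166, 210 and 225 CPM in retro-orbital tumors, all above the highest kidney tumor mouse at 50.9 CPM, a rise of 2.73 (SE 0.41, edgeR adjusted p 0.00275). Brain tumors were uneven, at 305, 19.4 and 11.9 CPM, with mouse 1 above every kidney and retro-orbital tumor. In that brain tumor Col24a1 was at 45.9 CPM, against 2.44 and 0.370 CPM in the others, and Hapln1, a link protein gene of cartilage and brain matrix, at 190.0 CPM against 4.39 and 0.759 CPM. Col5a3 lay at 41.9, 54.8, 46.9 and 23.0 CPM in retro-orbital tumors, without overlap with kidney tumors, and rose by 1.76 (SE 0.33, edgeR adjusted p 0.00683). In brain tumors, at 6.44, 3.63 and 9.76 CPM, Col5a3 was lower than in retro-orbital tumors by 2.68 (SE 0.46, edgeR adjusted p 0.0414). Col5a2 lay at 377, 196, 408 and 216 CPM in retro-orbital tumors, with the lowest just above the highest kidney tumor mouse, at 196.2 against 195.6 CPM, and rose by 1.15 (SE 0.28, edgeR adjusted p 0.02).

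Type I and type III chains were not called between retro-orbital and kidney tumors, and brain tumors lay below both. Retro-orbital tumors had 891, 410, 911 and 384 CPM of Col1a1, with mice 2 and 5 above every kidney tumor mouse and mice 3 and 6 inside their range, a log2 difference of 0.37 (SE 0.42, edgeR adjusted p 0.576). Brain tumors had 75.2, 33.5 and 82.8 CPM of Col1a1, all below every other tumor. Col1a1 fell by 2.90 (SE 0.54, edgeR adjusted p 0.0197) from kidney to brain tumors and by 3.37 (SE 0.51, edgeR adjusted p 0.0311) from retro-orbital to brain tumors. Col1a2 was at 136, 48.6 and 104 CPM in brain and 907, 397, 947 and 424 CPM in retro-orbital tumors, and fell by 2.38 (SE 0.51, edgeR adjusted p 0.0275) from kidney and by 2.82 (SE 0.51, edgeR adjusted p 0.0475) from retro-orbital tumors. Col3a1 was at 55.2, 39.4 and 150 CPM in brain and 998, 483, 1302 and 402 CPM in retro-orbital tumors. It fell by 2.34 (SE 0.54, edgeR adjusted p 0.0331) from kidney to brain tumors, whereas the difference from retro-orbital tumors, -3.30 (SE 0.67, edgeR adjusted p 0.0596), was not called although the groups did not overlap.

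**Figure D4:**
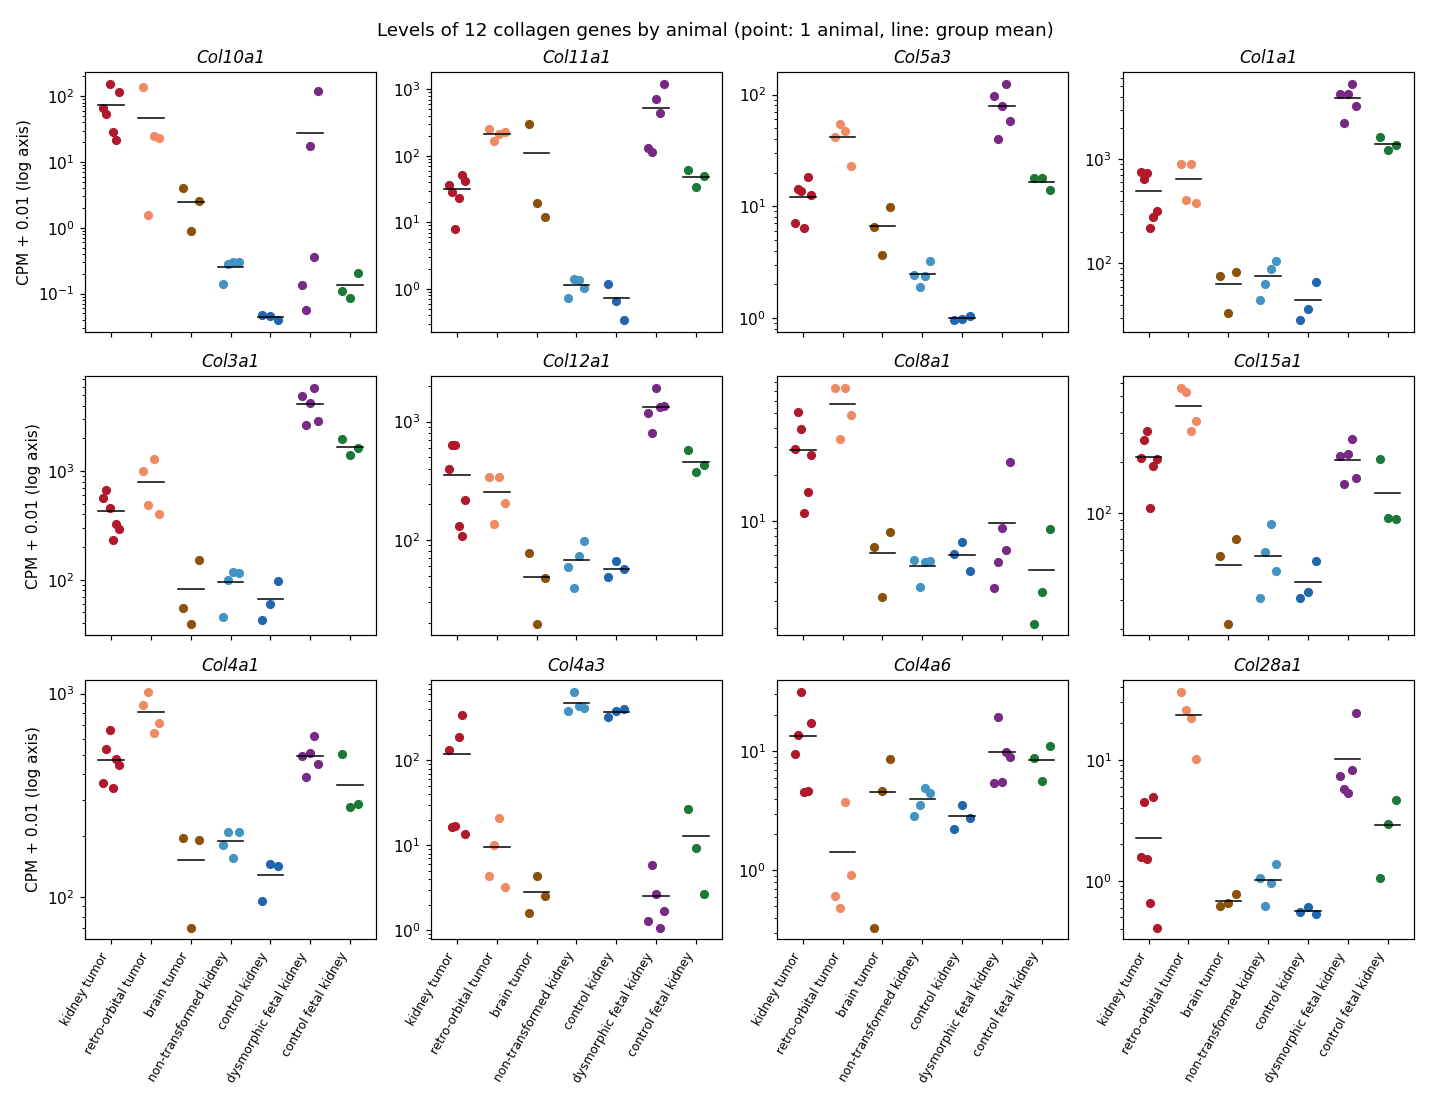
Level of 12 collagen genes in each mouse or fetus, as CPM plus 0.01 on a log axis, with a line at the mean of each of the 7 groups. Col10a1 lies at 21.4 to 155 CPM in kidney tumors and at 0.0300 to 0.0376 CPM in control kidneys, and Col4a3 is split between 3 high and 3 low kidney tumor mice.

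Genes of basement membrane chains lie in head to head pairs, and the pairs differed in these tissues. Col4a1 and Col4a2 (chromosome 8, with 22 overlapping bases) encode the type IV network of nearly all basement membranes. Col4a1 lay at 343 to 662 CPM with a median of 461 in kidney tumors, at 181, 210, 156 and 208 CPM in non-transformed and at 95.5, 146 and 143 CPM in control kidneys. Col4a2 lay at 295 to 606 CPM with a median of 438 in kidney tumors, at 166, 197, 168 and 169 CPM in non-transformed and at 82.1, 145 and 140 CPM in control kidneys. Both genes were therefore ordered control, non-transformed, tumor without overlap. Col4a1 rose by 1.86 (SE 0.26, edgeR adjusted p 0.00212) against control and by 1.27 (SE 0.20, edgeR adjusted p 0.00241) against non-transformed kidneys, and Col4a2 by 1.82 (SE 0.28, edgeR adjusted p 0.00341) and 1.28 (SE 0.19, edgeR adjusted p 0.00218). The step between the normal kidneys, 0.57 (SE 0.17, edgeR adjusted p 0.283) for Col4a1 and 0.53 (SE 0.19, edgeR adjusted p 0.352) for Col4a2, was not called. Per kilobase the ratio of Col4a1 to Col4a2 stayed near 1 in the adult groups, with means from 0.903 to 1.05, and was 1.52 and 1.55 in dysmorphic and control fetal kidneys.

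Col4a3 and Col4a4 lie head to head on chromosome 1 and, with Col4a5 on chromosome X, form the network of the mature glomerular filter. Col4a3 was at 323, 377 and 404 CPM in control kidneys, at 386, 648, 435 and 418 CPM in non-transformed kidneys and at 134, 16.6, 17.01, 190, 343 and 13.6 CPM in kidney tumor mice 1 to 6. Col4a4 was at 231, 289 and 251 CPM in control kidneys, at 357, 405, 226 and 422 CPM in non-transformed kidneys and at 90.9, 13.4, 12.98, 185, 293 and 10.4 CPM in kidney tumor mice 1 to 6. Mice 1, 4 and 5 had the higher levels of both genes, with mice 1 and 4 still below every normal kidney, and mice 2, 3 and 6 had the lower ones, and the differences from control, -1.65 (SE 0.96, edgeR adjusted p 0.242) for Col4a3 and -1.37 (SE 0.996, edgeR adjusted p 0.347) for Col4a4, were not called. The same 3 mice had the higher levels of Lrp2, a proximal tubule receptor gene, at 1421, 570, 575, 4629, 4635 and 570 CPM over mice 1 to 6. Of the 5 podocyte markers edgeR called 0 against control kidneys (1 at an unadjusted p under 0.05), with summed levels of 70.9 to 252 CPM in kidney tumors and 326 to 393 CPM in controls, and no marker was at 0 in either group. The 5 proximal tubule markers, with 0 called by edgeR and 1 at an unadjusted p under 0.05, summed to 618 to 7444 CPM in tumors and 10440 to 11000 CPM in controls. In that comparison 8536 of all 23578 genes had an unadjusted p under 0.05. The part of these cells in the collagen values was not tested.
The bases between the start sites of Col4a4 and Col4a3 are shown because both genes were high in normal kidneys and in the same 3 kidney tumor mice. The ratio of Col4a4 to Col4a3 per kilobase averaged 0.594 to 0.722 in the 5 adult groups and ran from 0.439 to 0.855 in single mice of the non-transformed group. In fetal kidneys it was higher, with means of 1.755 in dysmorphic and 1.06 in control kidneys. The run is GRCm38, plus strand, 5′ to 3′, without annotated exons.
Col4a4 to Col4a3, chr1:82586850-82586920, plus strand: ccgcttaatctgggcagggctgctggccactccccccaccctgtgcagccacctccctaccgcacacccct

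The glomerular and common networks are set against each other by the ratio of Col4a3, Col4a4 and Col4a5 to Col4a1 and Col4a2, each per kilobase. It was 2.07 ± 0.346 (SD, n = 3) in control kidneys, 1.78 ± 0.163 (n = 4) in non-transformed kidneys and 0.274 ± 0.208 (n = 6) in kidney tumors, whose highest mouse at 0.540 lay under the lowest kidney at 1.68. Retro-orbital tumors had 0.0200 ± 0.0155 (n = 4), brain tumors 0.126 ± 0.116 (n = 3), dysmorphic fetal kidneys 0.0626 ± 0.0483 (n = 5) and control fetal kidneys 0.126 ± 0.0233 (n = 3). Fetal ratios were low in both genotypes and overlapped.

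Col4a5 and Col4a6 lie head to head on chromosome X, and Col4a6 takes part in the network of Bowman's capsule and smooth muscle. Col4a6 lay at 4.55 to 31.7 CPM with a median of 11.6 in kidney tumors, at 2.84, 3.53, 4.89 and 4.49 CPM in non-transformed and at 2.23, 3.52 and 2.73 CPM in control kidneys, a rise of 2.24 (SE 0.66, edgeR adjusted p 0.0424) over control. Against non-transformed kidneys, which kidney tumors overlapped, the difference was 1.72 (SE 0.54, edgeR adjusted p 0.0526). Both chains were lower in retro-orbital tumors, where Col4a6 was at 0.599, 0.476, 3.74 and 0.897 CPM and Col4a5 at 14.7, 16.6, 25.2 and 14.6 CPM, below every kidney tumor mouse. Col4a6 fell by 3.26 (SE 0.81, edgeR adjusted p 0.0215) and Col4a5, at 56.3 to 100 CPM with a median of 65.7 in kidney tumors, by 2.04 (SE 0.24, edgeR adjusted p 0.00141). With mouse as a block the call of Col4a6 was lost and that of Col4a5 was kept.

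The common chains went the opposite way at that site. Retro-orbital tumors had 878, 1023, 638 and 716 CPM of Col4a1 and 1005, 1294, 596 and 739 CPM of Col4a2. Their lowest values overlapped the highest kidney tumor mouse, and Col4a1 rose by 0.76 (SE 0.20, edgeR adjusted p 0.0276) and Col4a2 by 1.02 (SE 0.24, edgeR adjusted p 0.0178). Brain tumors had 195, 70.7 and 191 CPM of Col4a1 and 201, 61.4 and 177 CPM of Col4a2, with mouse 2 below every normal kidney for both. Col4a1 fell by 1.59 (SE 0.36, edgeR adjusted p 0.0318) from kidney and by 2.44 (SE 0.40, edgeR adjusted p 0.0374) from retro-orbital tumors, and Col4a2 by 1.54 (SE 0.38, edgeR adjusted p 0.0403) and 2.66 (SE 0.49, edgeR adjusted p 0.0497). Col4a3 lay at 1.56, 4.35 and 2.52 CPM in brain tumors and fell by 5.37 (SE 1.41, edgeR adjusted p 0.0475) from kidney tumors, where mice 1, 4 and 5 carried the high Lrp2 values given above.

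The network chain Col10a1 had the largest rise of all collagens. Type X collagen is a short chain that forms a hexagonal network and is known as the marker of hypertrophic cartilage. Col10a1 (ENSMUSG00000039462.4, chr10:34389981-34397085, plus strand) lay at 66.8, 54.3, 155, 28.7, 21.4 and 115 CPM in kidney tumor mice 1 to 6, at 0.132, 0.268, 0.295 and 0.296 CPM in non-transformed kidneys and at 0.0376, 0.0361 and 0.0300 CPM in control kidneys, where the raw counts were 8, 8 and 7. The 3 groups did not overlap. Col10a1 rose by 11.02 (SE 1.0, edgeR adjusted p 0.00026) against control and by 8.15 (SE 0.75, edgeR adjusted p 0.000157) against non-transformed kidneys, and the difference of 2.83 (SE 0.47, edgeR adjusted p 0.173) between the kidney groups was not called by edgeR. In the first tumor library of mouse 4 it was at 2.94 CPM, against 52.9 CPM in the second library of that mouse and 20.5 to 169 CPM in the other 9 libraries.

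Chondrocyte and osteoblast markers were read beside Col10a1. Of 6 chondrocyte markers tested against control kidneys 2 were called higher (12.5% of all genes were), Acan and Sox9, and 3 of the 6 had a log2 fold change above 0 and 3 below. Acan, the aggrecan gene of cartilage matrix, was at 0.224 to 5.29 CPM in kidney tumors and at or below 0.0188 CPM in controls. Of the same list Matn1 and Snorc were at or below 0.0894 CPM in every kidney tumor mouse and Ucma at or below 0.0105 CPM and at 0 in every control. The 9 markers summed to 12.3 to 105 CPM in kidney tumors and 3.91 to 8.56 CPM in controls, most of it in tumors from Sox9, which was at 89.8, 37.1, 88.8, 14.2, 6.74 and 102 CPM in kidney tumor mice 1 to 6. Of 6 osteoblast markers tested 1 was called higher, Dmp1, and the list summed to 18.6 to 131 CPM in kidney tumors and 136 to 254 CPM in controls. Most of the control sum was Alpl, the alkaline phosphatase gene, at 131, 251 and 198 CPM in controls and 5.06 to 121.9 CPM in kidney tumors, while 5 of the 6 tested markers had a log2 fold change above 0. Bglap, the osteocalcin gene, was at or below 0.0387 CPM in every kidney tumor mouse.

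The gene of type X collagen lies wholly within Nt5dc1, a gene on the opposite strand, with 18 shared exonic bases, and whether counting used strand is not stated. Nt5dc1 was lower in kidney tumors, at 23.6 to 34.8 CPM, than in control kidneys, at 39.2 to 44.9 CPM, the other direction from Col10a1. The 250 bases before the start of Col10a1 are shown, as those of the collagen with the largest change, from RefSeq on the plus strand of GRCm38, 5′ to 3′ and without annotated exons, and capitals mark TATAAA.
Col10a1, chr10:34389731-34389980, plus strand: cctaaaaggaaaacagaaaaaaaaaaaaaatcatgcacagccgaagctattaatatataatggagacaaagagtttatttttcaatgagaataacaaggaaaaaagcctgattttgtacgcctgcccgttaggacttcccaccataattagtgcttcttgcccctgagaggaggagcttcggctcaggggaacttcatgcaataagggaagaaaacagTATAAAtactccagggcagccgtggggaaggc

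Promoter windows of 250 bases were found for 35 of the 44 genes in the RefSeq table. On either strand, CACGTG, the palindromic E-box core, was in 0 of the 35, where 6.02% of all 32851 windows had it, and CATGTG in 3, those of Col3a1, Col11a2 and Col24a1, where 12.3% had it. TATAAA was in 5, those of Col3a1, Col11a2, Col10a1, Col13a1 and Col17a1, where 12.4% had it, and GGGCGG in 21, where 32.7% had it.

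Outside the kidney the level of Col10a1 varied between mice. Retro-orbital tumors had 138, 1.55, 24.6 and 22.8 CPM in mice 2, 3, 5 and 6, a log2 difference of -0.69 (SE 0.94, edgeR adjusted p 0.649) from kidney tumors. Brain tumors had 3.95, 0.881 and 2.59 CPM, all under the lowest kidney tumor mouse, and Col10a1 fell there by 4.85 (SE 0.86, edgeR adjusted p 0.016). Retro-orbital mouse 3 thus lay with the brain tumors and mouse 2 with the highest kidney tumors. Pairs of kidney tumors of the same mouse differed in Col10a1 by 1.06, 0.14, 0.31 and 0.30 on the log2 scale in mice 1, 2, 3 and 6, and by 4.17 in mouse 4. Of 6 chondrocyte markers tested, retro-orbital tumors had Acan and Comp called higher than in kidney tumors and Sox9 lower. Of 6 osteoblast markers tested 3 were called higher and 1 lower. In that comparison 8.26% of all genes were called higher and 9.45% lower.

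Col8a1 encodes the type VIII network of vessel walls and of the membrane beneath the corneal endothelium. It lay at 11.2 to 51.3 CPM with a median of 28.0 in kidney tumors, at 5.58, 3.71, 5.42 and 5.47 CPM in non-transformed and at 6.09, 7.23 and 4.68 CPM in control kidneys, with no overlap. Col8a1 rose by 2.25 (SE 0.49, edgeR adjusted p 0.0155) and 2.47 (SE 0.42, edgeR adjusted p 0.00429). Brain tumors, at 6.78, 3.18 and 8.43 CPM, overlapped both normal kidney groups and lay lower by 2.20 (SE 0.55, edgeR adjusted p 0.0427) than kidney tumors. Retro-orbital tumors, at 73.2, 33.8, 73.5 and 48.5 CPM, were not called against kidney tumors, but brain tumors were lower than these by 3.24 (SE 0.46, edgeR adjusted p 0.0287). Its partner Col8a2 was at or below 3.51 CPM in every adult sample and was not called in any comparison.

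Among FACIT chains, which coat fibrils of other types, Col12a1 and Col9a2 were called in kidney tumors. Col12a1, the type XII chain of dense connective tissue, lay at 108 to 639 CPM with a median of 308 in kidney tumors, at 59.2, 39.6, 73.8 and 98.2 CPM in non-transformed and at 48.6, 65.8 and 56.7 CPM in control kidneys. The groups did not overlap, and Col12a1 rose by 2.62 (SE 0.65, edgeR adjusted p 0.0247) and 2.35 (SE 0.57, edgeR adjusted p 0.0209). Mice 2 and 3, both at 639 CPM, lay far above mice 4 and 5, at 130 and 108 CPM. Col9a2, a cartilage chain, lay at 0.0588 to 1.01 CPM in tumors against 0.0188, 0.0451 and 0.0342 CPM in controls, a rise of 3.95 (SE 0.97, edgeR adjusted p 0.0236) at these low levels. Col14a1, the type XIV chain of interstitial tissue, was already high in normal kidney at 113, 188 and 235 CPM and did not pass the test in kidney tumors, at 95.9 to 394 CPM with a median of 162, with a log2 difference of 0.21 (SE 0.48, edgeR adjusted p 0.783).

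Both interstitial FACIT chains were lower in brain than in kidney tumors. Col14a1 was at 2.98, 7.22 and 10.1 CPM there, and fell by 4.91 (SE 0.71, edgeR adjusted p 0.00894) from kidney tumors, and Col12a1 at 77.9, 19.6 and 47.4 CPM, and fell by 2.84 (SE 0.75, edgeR adjusted p 0.0494). For Col14a1 the retro-orbital tumors, at 132, 18.2, 165 and 32.1 CPM, were split, with mice 2 and 5 above mice 3 and 6. Col20a1 was at 12.5, 15.8, 9.15 and 7.49 CPM in retro-orbital tumors against 2.16 to 5.48 CPM with a median of 3.27 in kidney tumors and 2.10, 2.40 and 2.19 CPM in brain tumors. It rose by 1.65 (SE 0.31, edgeR adjusted p 0.0064) in the former comparison and fell by 2.35 (SE 0.35, edgeR adjusted p 0.0302) from retro-orbital to brain tumors, and shares 79 exonic bases on the same strand with another annotated transcript, BX649560.1. The cartilage FACIT chain Col9a3 was at 0.391, 7.80 and 35.6 CPM in brain tumors and passed the test there against kidney tumors without the first tumor library of mouse 4, higher by 5.15 (edgeR adjusted p 0.0146), where it had been 3.38 (edgeR adjusted p 0.132) with all libraries.

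Of the 15 other chains 3 were called higher in kidney tumors than in controls, where 12.5% of all genes were, namely Col6a2 and Col6a3 of the 6 genes of type VI beaded filaments, which link cells to fibrils, and the multiplexin Col15a1, which joins vascular basement membranes to fibrils. Col15a1 lay at 106 to 309 CPM with a median of 211 in kidney tumors, at 31.0, 57.8, 85.1 and 44.6 CPM in non-transformed and at 31.0, 33.5 and 51.5 CPM in control kidneys, without overlap. Col15a1 rose by 2.47 (SE 0.35, edgeR adjusted p 0.00251) and 1.93 (SE 0.35, edgeR adjusted p 0.00577). Col6a2 rose by 1.45 (SE 0.32, edgeR adjusted p 0.0162) against control, to 31.2 to 75.7 CPM with a median of 51.9 from 14.1, 17.2 and 24.4 CPM, and Col6a3 by 1.40 (SE 0.28, edgeR adjusted p 0.0106), to 109 to 221 CPM with a median of 164 from 45.9, 56.0 and 78.9 CPM. The third common chain, Col6a1, lay at 38.6 to 106 CPM with a median of 72.6 in tumors and 27.5, 34.3 and 45.1 CPM in controls, overlapped them and was not called, at 0.996 (SE 0.33, edgeR adjusted p 0.0602). Col18a1, the precursor of endostatin, was at 60.2 to 202 CPM with a median of 123 in kidney tumors and 79.0, 112 and 99.5 CPM in controls and was not called, at 0.41 (SE 0.33, edgeR adjusted p 0.394).

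All 3 common type VI chains were called in retro-orbital tumors. Col6a1 lay at 194, 189, 228 and 135 CPM, Col6a2 at 164, 161, 179 and 121.8 CPM and Col6a3 at 418, 312, 471 and 258 CPM, each above all kidney tumor mice. The rises were 1.34 (SE 0.27, edgeR adjusted p 0.00881) for Col6a1, 1.58 (SE 0.24, edgeR adjusted p 0.00309) for Col6a2 and 1.15 (SE 0.23, edgeR adjusted p 0.00901) for Col6a3. Brain tumors overlapped kidney tumors for each of these and the differences were not called.

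Col28a1, a chain known mainly from peripheral nerve, had the largest called difference of retro-orbital tumors from either other site. It lay at 36.6, 25.7, 21.9 and 10.2 CPM in retro-orbital tumors, at 0.400 to 4.89 CPM with a median of 1.54 in kidney tumors and at 0.612, 0.644 and 0.769 CPM in brain tumors. Col28a1 rose by 3.36 (SE 0.70, edgeR adjusted p 0.0101) in retro-orbital against kidney tumors and was lower in brain than in retro-orbital tumors by 5.15 (SE 0.52, edgeR adjusted p 0.016). Col13a1, a transmembrane chain of cell contacts, was at 3.20, 2.71, 3.19 and 2.74 CPM in retro-orbital and 0.647 to 1.72 CPM with a median of 0.910 in kidney tumors, a rise of 1.45 (SE 0.32, edgeR adjusted p 0.0131) without overlap. Col15a1 was at 562, 525, 310 and 357 CPM in retro-orbital tumors, a rise of 0.99 (SE 0.28, edgeR adjusted p 0.0348), and at 54.8, 21.6 and 69.8 CPM in brain tumors, lower by 2.11 (SE 0.44, edgeR adjusted p 0.0251) than in kidney and by 3.19 (SE 0.47, edgeR adjusted p 0.0298) than in retro-orbital tumors. Col18a1 was at 20.3, 11.4 and 36.5 CPM in brain and 191, 149, 118 and 119 CPM in retro-orbital tumors, and fell by 2.48 (SE 0.48, edgeR adjusted p 0.0213) from kidney and by 2.69 (SE 0.43, edgeR adjusted p 0.0359) from retro-orbital to brain tumors.

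Some markers of stromal, vascular and host tissue cells were also called between sites, where 8.26% of all genes were called higher in retro-orbital than in kidney tumors and 4.2% lower and 4.54% higher in brain than in kidney tumors. The 8 fibroblast markers summed to 826 to 1275 CPM in retro-orbital tumors and 150.3 to 502 CPM in kidney tumors, with 2 called higher, Thy1 and Dcn. The 7 pericyte and smooth muscle markers summed to 781 to 890 CPM against 274 to 665 CPM, with 2 called higher, Pdgfrb and Rgs5, and the 5 endothelial markers to 891 to 1303 CPM against 357 to 697 CPM, with 2 called higher, Pecam1 and Cdh5. In brain tumors pericyte and smooth muscle markers summed to 131 to 268 CPM with 2 of 7 called lower than in kidney tumors, fibroblast markers to 280 to 1975 CPM with 2 of 8 called lower, Dpt and Mfap5, endothelial markers to 193 to 1203 CPM with 2 of 5 called lower, and brain markers to 129 to 1498 CPM against 14.3 to 96.2 CPM with 2 of 6 called higher. None of these markers was at 0 in the groups named. For retro-orbital against kidney tumors the log2 fold change was above 0 for 6 fibroblast, 4 pericyte and smooth muscle and 5 endothelial markers. It was below 0 for 2, 3 and 0. For brain against kidney tumors it was above 0 for 3, 0 and 1 of these and below 0 for 5, 7 and 4. Among the fibroblast markers Dcn was at 269, 490 and 1255 CPM in brain tumors and 92.2 to 336.5 CPM in kidney tumors. Retro-orbital mouse 5 had the highest Lrp2 of its group, at 687 CPM, with the epidermal gene Krt5 at 27.6 CPM and Dct at 102 CPM. Brain mouse 4 had Lrp2 at 698 CPM, Dct at 860.0 CPM and Gfap at 151 CPM. Brain mouse 2 had Snap25, a neuronal gene, at 298 CPM and Col25a1, a transmembrane chain of neurons, at 70.7 CPM, against 0.551 and 0.555 CPM in the other brain tumors. The part of these cells in the differences between sites was not tested.

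In the fetal model, chains of type I, type V, type VI and the interstitial FACIT collagens were called higher in dysmorphic than in control kidneys. Of 44 genes 10 were called, where 2.67% of all genes were, and all 10 were higher (2.4% of all genes were higher and 0.269% lower), with a median log2 fold change of 1.29 against -0.04 over all genes. Each dysmorphic kidney lay above each control for 20 genes, where 9.82% of all genes did so, and below for 0, where 4.58% did so. By class 4 of 11 fibrillar, 0 of 6 basement membrane, 0 of 3 network, 2 of 9 FACIT and 4 of 15 other genes were called by edgeR, with 1 basement membrane and 1 network gene at an unadjusted p under 0.05. Of all 22690 genes 4609 had an unadjusted p under 0.05. No collagen was called with edgeR without dysmorphic kidney 1, 3 or 4 or without control 1, 2 or 3 (21 to 31 genes at an unadjusted p under 0.05). In each of these 6 fits 0 of all genes passed, and 3209 to 4615 had an unadjusted p under 0.05. Leaving out dysmorphic kidney 2 gave 16, among 1247 of 22362 genes. With fetal sex, read from Y-linked transcripts, as a covariate 0 were called with edgeR (33 at an unadjusted p under 0.05), and 5 of all 22690 genes (4675 at an unadjusted p under 0.05). DESeq2 called 28, among 2601 of 24152 genes.

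The tensile fibrils came first in level. Col1a1 lay at 4251, 2231, 4243, 5315 and 3229 CPM in dysmorphic and 1639, 1230 and 1380 CPM in control fetal kidneys, a rise of 1.42 (SE 0.26, edgeR adjusted p 0.0395). Col1a2 lay at 3591, 1923, 3641, 4498 and 2654 CPM and 1500, 979 and 1049 CPM, a rise of 1.45 (SE 0.28, edgeR adjusted p 0.0415). Groups did not overlap for either chain, with dysmorphic kidney 2 the lowest of its group for both. Col3a1, at 4914, 2634, 4268, 5878 and 2901 CPM and 1970, 1413 and 1623 CPM, did not overlap either but was not called, at 1.28 (SE 0.28, edgeR adjusted p 0.054). Col5a2 lay at 836, 489, 1021, 939 and 601 CPM in dysmorphic and 273, 247.6 and 275 CPM in control kidneys and rose by 1.52 (SE 0.24, edgeR adjusted p 0.035). Col5a3 lay at 96.7, 40.2, 78.9, 125 and 57.8 CPM and 17.9, 18.0 and 13.9 CPM and rose by 2.24 (SE 0.36, edgeR adjusted p 0.035), the largest called change of the collagens here.

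The FACIT and type VI chains of interstitial tissue moved likewise. Col12a1 lay at 1181, 799, 1939, 1335 and 1354 CPM in dysmorphic and 571, 375 and 431 CPM in control fetal kidneys, a rise of 1.504 (SE 0.27, edgeR adjusted p 0.0382). Col14a1 lay at 1004, 557, 999, 1182 and 745 CPM and 440, 344 and 325 CPM, a rise of 1.26 (SE 0.24, edgeR adjusted p 0.0413). No dysmorphic kidney fell into the control range for either gene. Col6a1 lay at 788, 472, 932, 915 and 600 CPM and 283, 343 and 356 CPM, Col6a2 at 576, 334, 636, 725 and 482 CPM and 182, 211 and 260 CPM and Col6a3 at 1628, 804, 1922, 2152 and 1236 CPM and 425, 354 and 458 CPM. The rises were 1.15 (SE 0.24, edgeR adjusted p 0.0475) for Col6a1, 1.31 (SE 0.26, edgeR adjusted p 0.0434) for Col6a2 and 1.88 (SE 0.31, edgeR adjusted p 0.035) for Col6a3, so that the ratio of Col6a3 to Col6a1 per kilobase was 0.933 ± 0.105 (SD, n = 5) in dysmorphic and 0.580 ± 0.108 (n = 3) in control kidneys. Col6a6, a later type VI chain, lay at 258, 116, 341, 331 and 155 CPM and 43.2, 46.6 and 67.2 CPM and rose by 2.17 (SE 0.40, edgeR adjusted p 0.0395). Col6a4 and Col6a5, of the same later group, followed another pattern, high in dysmorphic kidneys 2 and 5 and control kidneys 2 and 3 and low in the other 4, at 0.974, 71.3, 1.85, 1.33 and 165 CPM and 2.90, 215 and 290 CPM for Col6a4. The smooth muscle gene Myh11 was high in the same 4 fetuses, at 91.8, 453, 55.6, 61.0 and 324 CPM in dysmorphic and 50.7, 556 and 1044 CPM in control kidneys.

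Cartilage collagens were high in part of the dysmorphic kidneys only. Col2a1 lay at 1.23, 45.6, 674, 214 and 1555 CPM in dysmorphic kidneys 1 to 5 and 14.2, 5.37 and 5.74 CPM in controls. Col9a1 lay at 1.02, 7.63, 108, 55.6 and 335 CPM and 2.32, 0.769 and 0.826 CPM, and Col11a2 at 2.16, 4.98, 68.7, 31.6 and 201 CPM and 4.52, 1.80 and 2.41 CPM. Kidneys 3, 4 and 5 were high and kidney 1 was within or below the control range for all 3 genes, and none of the 3 was called. Col11a1 lay at 130, 113, 714, 436 and 1215 CPM against 60.5, 34.6 and 49.3 CPM, with all dysmorphic kidneys above controls, and was not called, at 3.42 (SE 0.87, edgeR adjusted p 0.08). Col10a1, at 0.126, 0.0459, 17.8, 0.354 and 121 CPM against 0.0984, 0.0761 and 0.196 CPM, was high in kidneys 3 and 5 alone. The cartilage matrix genes followed the same kidneys, with Acan, the aggrecan gene, at 3.92, 7.95, 125, 50.8 and 417 CPM, Matn1 at 0.0733, 0.0613, 9.94, 3.03 and 27.1 CPM and Cnmd at 0.377, 1.79, 41.2, 14.2 and 134 CPM. The 9 chondrocyte markers summed to 15.6 to 866 CPM in dysmorphic and 14.4 to 22.9 CPM in control kidneys. EdgeR called 0 of them, with 8 at an unadjusted p under 0.05, as were 4609 of all 22690 genes.

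**Figure D5:**
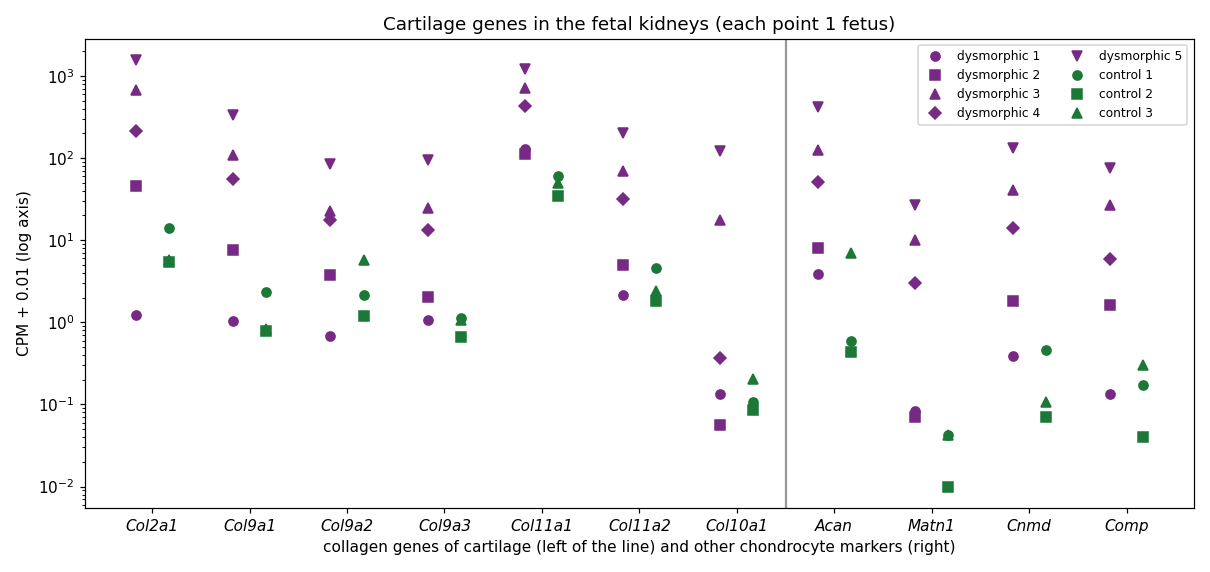
Levels of cartilage collagens and of cartilage matrix genes in each of the 8 fetal kidneys, as CPM plus 0.01 on a log axis. Dysmorphic kidneys 3, 4 and 5 lie above kidneys 1 and 2 for every gene plotted, with Col2a1 at 674, 214 and 1555 CPM.

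Markers of other tissues also differed between the fetal groups. Of 6 skeletal muscle markers 5 were called higher in dysmorphic kidneys (2.4% of all genes were), with sums of 2524 to 5842 CPM against 1068 to 1323 CPM in controls. The 5 epidermis markers summed to 1311 to 4230 CPM against 9.90 to 720 CPM and the 8 fibroblast markers to 855 to 1688 CPM against 538 to 683 CPM. EdgeR called 0 in both lists, with 3 of 5 and 8 of 8 at an unadjusted p under 0.05, as were 4609 of all 22690 genes. The 5 podocyte markers summed to 75.0 to 149 CPM against 225 to 374 CPM, with Podxl called lower, and Nphs1 was near 0 in control kidney 3, at 0.147 CPM. No gene of these lists was at 0 across a group, and the part of these tissues in the collagen values was not tested. The chains of the kidney's own filter, Col4a3 and Col4a4, were at 1.26, 5.87, 2.67, 1.06 and 1.69 CPM and 3.37, 12.9, 3.83, 1.98 and 3.71 CPM in dysmorphic and at 26.4, 9.31 and 2.68 CPM and 35.3, 13.6 and 2.58 CPM in control fetal kidneys, and were not called.

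Of the 44 collagen genes 18 were called in no comparison, where 65% of the 25364 genes tested in any were called in none. Among the 18 were the chains of epidermis, muscle junctions and neurons. Col7a1, the anchoring fibril that fastens epidermis to dermis, lay at 107, 47.3, 83.3, 202 and 57.1 CPM in dysmorphic and 41.4, 13.1 and 16.4 CPM in control fetal kidneys, and Col17a1, a transmembrane chain of the same junction, at 56.0, 30.1, 49.8, 92.9 and 27.8 CPM and 10.9, 4.90 and 0.573 CPM. Neither overlapped between the fetal groups, with log2 differences of 2.06 (SE 0.59, edgeR adjusted p 0.105) and 3.23 (SE 0.88, edgeR adjusted p 0.0935). In adult tissue Col17a1 was at or below 0.903 CPM apart from retro-orbital mouse 5, at 10.49 CPM, the mouse with Krt5 at 27.6 CPM. Col22a1, a FACIT chain of tissue junctions, was at or below 1.39 CPM in every adult sample and at 6.86, 3.38, 35.7, 18.9 and 24.5 CPM in dysmorphic against 2.47, 2.31 and 4.66 CPM in control fetal kidneys. Fetal groups overlapped for Col22a1, with kidney 2 inside the control range and the other 4 dysmorphic kidneys above it. Col16a1, a widely expressed FACIT chain, was at 8.16 to 23.0 CPM with a median of 21.7 in kidney tumors and 9.54, 10.3 and 14.4 CPM in control kidneys, which overlapped. The transmembrane chain Col23a1 lay between 0.523 and 2.78 CPM in every adult sample. Col26a1 was at 0.7998, 1.58 and 1.08 CPM in control kidneys and at or below 0.202 CPM in retro-orbital tumors, and Col19a1 at 1.94, 1.78 and 1.94 CPM in control kidneys and at 0.115 to 1.62 CPM with a median of 0.788 in kidney tumors, all below control, a log2 difference of -1.28 (SE 0.61, edgeR adjusted p 0.162).

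Genes that modify, secrete, organise and bind collagen were read from a list of 75. In kidney tumors 22 were called higher and 4 lower of 73 tested against control kidneys, where 12.5% of all genes were called higher and 6.51% lower, and 20 higher and 3 lower of 73 against non-transformed kidneys, where 12.1% and 5.02% of all genes were. By group, 8 of 19 modification and folding genes were higher against control, among them P4ha3, a prolyl hydroxylase subunit, by 3.92 (SE 0.65, edgeR adjusted p 0.00516), and Fkbp10, a collagen folding enzyme, by 1.89 (SE 0.31, edgeR adjusted p 0.00528). Of 11 tested secretion and trimming genes 2 were higher, the procollagen proteases Bmp1, by 1.80 (SE 0.30, edgeR adjusted p 0.00507), and Adamts2, by 2.04 (SE 0.47, edgeR adjusted p 0.0184), and 2 were lower, the export factors Mia2 and Mia3. Of 13 tested fibril organisers 5 rose, among them Fn1, the fibronectin gene, by 2.65 (SE 0.47, edgeR adjusted p 0.00733), and Sparc, a collagen-binding matricellular gene, by 1.97 (SE 0.31, edgeR adjusted p 0.00422). Of 10 receptors 3 rose, Itga11, an integrin chain for fibrillar collagen, by 3.27 (SE 0.82, edgeR adjusted p 0.0256), Itga2 and Itgb1, and Gp6 was lower. Of 20 further basement membrane genes 4 rose, among them Pxdn, the enzyme that crosslinks type IV collagen, by 2.08 (SE 0.36, edgeR adjusted p 0.00637), and Lama4, a vascular laminin chain, by 1.66 (SE 0.32, edgeR adjusted p 0.00981), while Npnt, a nephronectin gene of tubular basement membranes, fell by 1.81 (SE 0.55, edgeR adjusted p 0.0466).

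Between sites genes of the pathway moved both ways. In retro-orbital against kidney tumors 18 of 75 pathway genes were higher and 10 lower, where 8.26% of all genes were higher and 9.45% lower. P4ha3 rose further, by 3.70 (SE 0.46, edgeR adjusted p 0.00153), as did Fkbp10, by 1.76 (SE 0.25, edgeR adjusted p 0.00231), and Postn, a periostin gene of fibroblasts, by 1.97 (SE 0.40, edgeR adjusted p 0.00886). P4hb, the shared subunit of prolyl hydroxylases, fell by 0.93 (SE 0.21, edgeR adjusted p 0.0143) and Ddr1, an epithelial collagen receptor, by 1.25 (SE 0.24, edgeR adjusted p 0.00685), whereas Ddr2, its mesenchymal relative, rose by 2.12 (SE 0.52, edgeR adjusted p 0.0199). In brain against kidney tumors 10 of 74 were called and all were lower (4.2% of all genes), among them Pcolce, an enhancer of procollagen trimming, by 2.99 (SE 0.45, edgeR adjusted p 0.0106), and Pxdn, by 2.59 (SE 0.35, edgeR adjusted p 0.00746). Of 75 genes 12 were lower in brain than in retro-orbital tumors (1.34% of all genes). In dysmorphic fetal kidneys 13 of 75 were higher (2.4% of all genes), 7 of them among the 14 fibril organisers, with Postn up by 1.97 (SE 0.33, edgeR adjusted p 0.035) and Aspn, a small proteoglycan gene, by 1.995 (SE 0.27, edgeR adjusted p 0.035).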

How the data were processed

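RNA of formalin-fixed, paraffin-embedded mouse tissue was sequenced from total RNA libraries made with a stranded kit without depletion of ribosomal RNA. The authors deposited raw counts per gene for 36 libraries. The submitters' processing notes name FastQC, MultiQC, Bowtie2 and STAR 2.5.2a and the builds GRCm38 and mm10, and whether counting used strand is not given in the sources used here. Low deposited counts were mostly even, with 79.04% to 84.33% of counts from 1 to 20 in each library, so counting error may exceed what the totals of 80205573 to 121415057 give, and halved counts were tried as an alternative.

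Of 53379 gene identifiers 53274 matched GENCODE M21 (GRCm38) ignoring versions. Libraries of the same animal and tissue were summed. For a comparison only its 2 groups entered the fit, made in R 4.3.3 with edgeR 4.0.16 (filterByExpr, TMM, quasi-likelihood F-test, Benjamini-Hochberg adjustment over all genes tested, threshold 0.05), and the SE of a log2 fold change was taken from it and the F statistic, as the change over the root of F. The fit was tested on simulated data. Levels per kilobase use the principal transcript. Collagen genes described in full were, per comparison, up to 12 called genes with the largest changes and a mean of at least 1 CPM in either group, and any other member could be named. DESeq2 1.42.0, other scalings, no filter, sex, mouse as a block, separate libraries and leaving out each animal were tried. The members and lists were chosen with earlier results of these data known.

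Kidney tumors, tumors elsewhere and non-transformed kidneys with the same number came from the same mouse, which is why mouse was a block in alternative fits. Fold changes, SE and adjusted p values come from fits without this block unless the block is named. The correlation of deviations from the group means was -0.042 to 0.161 for kidney tumor and non-transformed kidney of a mouse, 0.239 to 0.328 for retro-orbital and kidney tumor and -0.0738 to -0.0607 for brain and kidney tumor. One marker gene of a list is not reported here by name.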

Additional observations from a re-analysis of the deposited data

Results flagged for a closer look

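Among levels of the collagen genes described above in groups of 4 to 6 animals, 10 of 100 had a highest or lowest animal far from the others by Dixon's ratio. The limits give about 5 of 100 for independent normal values. These levels come from the same few animals, so 10 is not read as an excess. In non-transformed kidneys, Col5a2 was at 91.0 CPM and Col4a2 at 197 CPM in mouse 3, with the next highest mice at 58.8 and 169 CPM. Col8a1 was at 3.71 CPM in the same mouse, with the next lowest at 5.42 CPM, and Col6a1 was at 37.7 CPM in mouse 5, with the next lowest at 50.2 CPM. In retro-orbital tumors, Col4a6 was at 3.74 CPM in mouse 5, with the next at 0.897 CPM, and Col10a1 at 138 CPM in mouse 2, with the next at 24.6 CPM.

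In dysmorphic fetal kidneys, Col4a5 was at 80.02 CPM in kidney 2, with the next at 36.3 CPM. Kidney 5 was far above the others for 3 genes, with Col8a1 at 24.0 CPM (next 8.96 CPM), Col10a1 at 121 CPM (next 17.8 CPM) and Col28a1 at 24.1 CPM (next 8.15 CPM).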

How the results depend on the processing

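For single genes 936 alternative values kept the direction and the side of the threshold, 230 kept the direction and lost the call, and 0 reversed. No change of scaling turned a direction. Upper quartile scaling lost the call for 4 of these values and the fit without a filter for 3. DESeq2 called 3 genes in non-transformed against control kidneys, 25 in brain against retro-orbital tumors and 28 in dysmorphic against control fetal kidneys, and separate libraries gave 2 in the first of these. With mouse as a replicate block the count was 7 for kidney tumors against non-transformed kidneys and 0 for brain against kidney tumors, and for retro-orbital against kidney tumors it was 12. No paired analysis was possible for brain against retro-orbital tumors because only mouse 2 gave both. The block of the fetal samples by a prefix in their titles, whose meaning is not given, left 3 calls, Col5a2, Col5a3 and Col6a3 (409 of all 22690 genes). Sex as a covariate left 4 calls in brain against retro-orbital tumors (175 of all 21037 genes) and 0 in fetal kidneys (5 of all 22690 genes). For brain against kidney tumors it left 8 (1469 of all 23391 genes), and Col4a3, Col12a1, Col8a1 and Col4a2 lost their calls. The fit of kidney tumors against control kidneys called 6118 of all 23578 genes with sex and 4474 without. By Y-linked transcripts every control kidney mouse was read as female, and fusion mice 1 and 5 as male.

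Leaving out 1 animal at a time gave 9 to 18 calls for kidney tumors against control kidneys, 12 to 18 against non-transformed kidneys, 0 for non-transformed against control kidneys, 9 to 16 for retro-orbital against kidney tumors, 4 to 12 for brain against kidney tumors, 0 to 15 for brain against retro-orbital tumors and 0 to 16 for fetal kidneys. The same fits called 1163 to 5856 genes in all against control kidneys, 1712 to 5522 against non-transformed kidneys and 0 to 10 between the kidney groups. In the order given, the remaining ranges were 2095 to 4089, 857 to 2075, 1 to 1316 and 0 to 1247 genes in all. The cause of these changes was not tested, beyond the smaller groups. Without the first tumor library of mouse 4, a setting chosen after seeing the data, the counts in comparisons with kidney tumors were 18 against control (5246 of all 23504 genes), 19 against non-transformed kidneys (4549 of 21023), 15 in retro-orbital (3974 of 21109) and 15 in brain tumors (2729 of 21529). Control kidney levels of Col10a1 rest on 7 or 8 counts.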

Other observations

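Kidney tumors of the same mouse were close in collagen levels in some mice and far apart in others. Over the collagen genes with more than 3 counts in both tumors, the median absolute log2 ratio between the tumors of a pair was 0.283 in mouse 6 (42 genes), 0.441 in mouse 2 (41 genes) and 0.752 in mouse 4 (44 genes), and 1.05 in mouse 1 (41 genes) and 1.33 in mouse 3 (42 genes). The largest ratio of a gene, 8.88 on the log2 scale, was in mouse 4, whose first tumor library stood apart. These values have no replicate within a mouse.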
